A study of Mus musculus with 5 samples.

Results

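The amino acid transporters described here are 10 genes of the plasma membrane carriers that bring amino acids into growing blood cells, chosen by symbol from 22180 genes analysed. Each was read from the array feature that names it alone, and where several did, from the one with the highest mean over the 5 arrays. The arrays held RNA of hematopoietic stem cells (HSCs), the rare bone marrow cells from which blood lineages are renewed. Stem and progenitor cells of C57BL/6 mice, with no genetic change named in the labels, were kept for 24 h with 5 µM all-trans retinoic acid (ATRA), the active vitamin A derivative, or with DMSO, its solvent. HSCs were sorted by flow cytometry afterwards, so each value describes the cells that met the gate after culture. There were 2 ATRA arrays and 3 DMSO arrays, from 1 strain and 1 time point. Their number limits the precision of every value, and the labels do not say that replicates came from separate cultures or animals. The p-values then reflect how far these samples scatter, and that scatter may be technical.

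Amino acid carriers supply protein synthesis and report nutrient supply to mTORC1, the kinase complex that drives cell growth. Some work as pairs, in which the glycoprotein encoded by Slc3a2 (CD98, 4F2hc) brings a light chain of the Slc7 family to the cell surface. The light chains exchange 1 amino acid for another. They therefore depend on carriers that accumulate glutamine and other small neutral amino acids, such as those of the Slc38 family. In lymphocytes and other cells that leave rest, several of these carriers are known to be induced by MYC, and in cells short of amino acids by the transcription factor ATF4.

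In the ATRA arrays 6 of the 10 transporter genes were lower and 0 were higher past a limma adjusted p of 0.05, against 15.5% lower and 6.48% higher among the 22180 genes tested. The genes that fell were the CD98 heavy chain Slc3a2, its light chains Slc7a5 and Slc7a6, the glutamine carrier Slc1a5, and the sodium-coupled carriers Slc38a1 and Slc38a2. Slc1a5 showed the largest difference of the 10 in the brighter of its 2 features, 11.04-fold lower with ATRA, but with the features averaged its difference (-1.84) was smaller than those of Slc38a1, Slc7a5, Slc7a1 and Slc3a2. The differences ran from -3.46 to 0.42 on the log2 scale with a median of -1.88, beside a median of 0.16 over all genes tested. Both ATRA values lay below all 3 DMSO values in 7 members and above them in 0, against 29.2% of all genes below, 33% above and 62.1% to either side. At an unadjusted p under 0.05 (limma) there were 7 members, the 6 that passed and Slc7a1, against 8935 of the 22180 genes in either direction. With the trend of the differences on expression level removed, 0 members passed. In bulk samples of this kind, fewer cells of a type and less RNA per cell cannot be told apart.

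**Figure D1:**
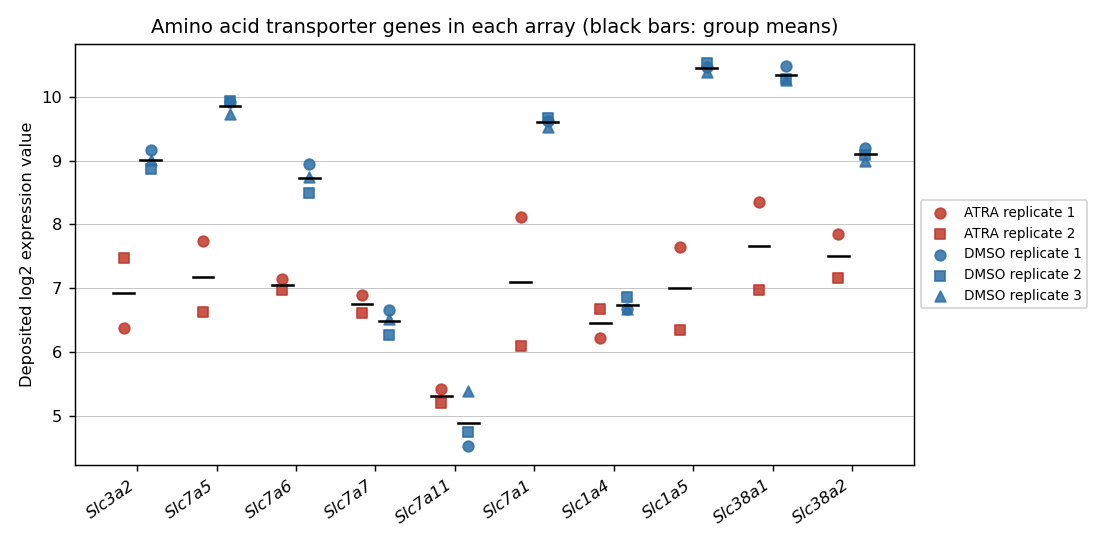
Deposited log2 expression value (vertical axis) of each transporter gene (horizontal axis) in the 2 ATRA arrays (red) and the 3 DMSO arrays (blue), with symbols for the replicates and black bars for the group means. In 7 genes the arrays have both ATRA values below all DMSO values, while the groups of Slc7a7, Slc7a11 and Slc1a4 overlap.

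The ATRA arrays differed from the DMSO arrays in the whole distribution of values, and this touches every transporter difference. The SD over the 41345 features was 1.77 and 1.49 in ATRA replicates 1 and 2, against 1.96 to 1.97 in DMSO. The ATRA arrays correlated with each other at a Pearson's r of 0.730 and the DMSO arrays at 0.966 to 0.978, over features, which share probes' and arrays' effects and are no replicates. ATRA replicate 1 correlated with the DMSO arrays at 0.811 to 0.834, above its correlation with ATRA replicate 2, and ATRA replicate 2 with the DMSO arrays at 0.602 to 0.641. In the classes of DMSO mean from 7 to 12, each 1 unit wide, the median gene was lower in both ATRA arrays. In the 44 genes from 12 to 13 the median was -0.18 in ATRA replicate 1 and -2.32 in replicate 2, and 54.5% had both ATRA values below the DMSO values. Of the 1223 genes whose DMSO mean was 9 to 10, 57.5% were lower past the threshold, with a median difference of -1.94. Of the 4333 genes from 6 to 7, 2.65% were lower, with a median difference of 0.14. Of the 7 transporter genes with a DMSO mean of at least 8, 6 fell, beside 52.8% of all 4450 genes at or above 8, and of the 3 transporters below 8, 0 did. Each transporter is therefore set beside the genes of its own class of DMSO mean in what follows, as a description with no test.

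Promoter letters are shown for the members whose windows hold the ATF element and for a pair of members that fell, so that the stretches can be compared. The C/EBP-ATF response element, bound by ATF4 with its partners, is a well known control of amino acid carriers under amino acid shortage. RefSeq windows of 300 bases (250 before to 50 after each start, GRCm38.p6) were listed for 7 of the 10 members, in 13 windows. The core letters TGATGNAA, searched on both strands, were in the windows of Slc7a11, Slc1a4 and Slc7a7, against 3.97% of all 32851 windows and 4.51% of 27025 genes. These were the 3 genes whose ATRA and DMSO values overlap and whose DMSO mean is below 8. This was seen after the values were known. Of the 4 other members with a window, 0 held the letters. The 3 members without a window, Slc7a5, Slc1a5 and Slc38a1, all fell and were not searched. The letters were thus read in only a part of the genes that fell. With 100 bases before and 10 after the start, 5′ to 3′ on the gene's strand, which is the minus strand in each case, and with the matches in capitals, the stretches are as follows. They lie at chr3:50443604-50443713 for Slc7a11, chr11:20332704-20332813 for Slc1a4, chr14:54417935-54418044 for the first listed start of Slc7a7, chr19:8713888-8713997 for Slc3a2 and chr15:96699719-96699828 for Slc38a2.
Slc7a11: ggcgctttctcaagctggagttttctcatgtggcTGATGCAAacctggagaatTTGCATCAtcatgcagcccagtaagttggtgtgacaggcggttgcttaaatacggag
Slc1a4: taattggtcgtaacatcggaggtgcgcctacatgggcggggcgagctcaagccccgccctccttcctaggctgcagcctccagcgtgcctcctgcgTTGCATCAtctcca
Slc7a7: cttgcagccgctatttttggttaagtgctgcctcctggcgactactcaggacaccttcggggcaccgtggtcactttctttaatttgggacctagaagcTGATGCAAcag
Slc3a2: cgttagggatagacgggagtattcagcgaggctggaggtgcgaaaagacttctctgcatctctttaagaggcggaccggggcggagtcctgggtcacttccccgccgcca
Slc38a2: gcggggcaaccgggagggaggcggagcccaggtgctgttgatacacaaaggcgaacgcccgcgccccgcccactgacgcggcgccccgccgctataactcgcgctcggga
Slc7a11 holds the letters at positions -66 to -59 and again, on the other strand, at -47 to -40. Slc1a4 holds them at -4 to 4 and Slc7a7 at -1 to 7, across the annotated start, with another match in Slc7a7 at -141 to -134. The E-box CACGTG, the letters that MYC and its partners bind, was in 0 of the 13 windows, against 7.15% of all windows. With so few windows and that share, 0 matches cannot tell the members from other genes. Direct repeats of AGGTCA with 5 or 2 bases between, spellings of the element that retinoic acid receptors bind, were in 0 of the 13, against 0.00913% of all windows each. Only 3 of the 32851 windows held each spelling, so 0 of 13 cannot tell the members from other genes. Other spellings were not searched. The 4 motifs were searched on both strands and share no letters where they matched in the members. A match is a run of letters and not a bound site, and the lack of a match says nothing of letters outside the window.

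The CD98 heavy chain fell with ATRA. Slc3a2 (chromosome 19, 8706882 to 8723369) stood at 6.37 and 7.48 in ATRA, against 9.17, 8.87 and 9.01 in DMSO. Both ATRA values were below every DMSO value, and ATRA replicate 2 was the higher of the ATRA arrays. The difference was -2.09 (SE 0.36, adjusted p = 0.0256), which is 4.27-fold lower. The 1223 genes of its DMSO level had a median difference of -1.94. Against that level the arrays parted, since Slc3a2 differed from the median gene by -1.29 in ATRA replicate 1 and by 1.01 in replicate 2.

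Among the light chains, Slc7a5 (LAT1), which carries leucine and other large neutral amino acids, fell with its partner. Slc7a5 (chromosome 8, 121881146 to 121907686) stood at 7.74 and 6.62 in ATRA, against 9.92, 9.94 and 9.74 in DMSO. The ATRA values were both lower than every DMSO value, here with replicate 2 as the lower one. The difference was -2.68 (SE 0.36, adjusted p = 0.0152), or 6.42-fold lower. Set against the median of genes of its level, Slc7a5 differed by -0.77 and -0.70 in ATRA replicates 1 and 2. The order of the ATRA arrays was opposite in the partners, with ATRA replicate 2 minus replicate 1 at -1.12 in Slc7a5 and at 1.11 in Slc3a2.

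Slc7a6 (y+LAT2), a light chain that exchanges cationic for neutral amino acids, had the smallest adjusted p of the 10 genes. Slc7a6 (chromosome 8, 106168219 to 106198714) stood at 7.14 and 6.97 in ATRA, against 8.95, 8.49 and 8.75 in DMSO. The ATRA arrays were close together and below all DMSO arrays. The difference was -1.68 (SE 0.18, adjusted p = 0.0105), 3.19-fold lower, beside -1.33 for the 2582 genes whose DMSO mean was 8 to 9.

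Slc7a7 and Slc7a11, further light chains, did not pass. Slc7a7 (y+LAT1, chromosome 14, 54369442 to 54420068), which exports arginine and lysine from epithelial cells and macrophages, stood at 6.89 and 6.61 in ATRA, against 6.65, 6.27 and 6.52 in DMSO. The groups overlapped, and the difference was 0.27 (95% interval -0.21 to 0.75, adjusted p = 0.276), beside 0.14 for genes of its level. Slc7a11 (xCT, chromosome 3, 50364936 to 50499087), which takes up cystine for glutathione synthesis in exchange for glutamate, stood at 5.42 and 5.19 in ATRA, against 4.53, 4.74 and 5.38 in DMSO. Here DMSO replicate 3 lay between the ATRA values. The difference of Slc7a11 was 0.42 (95% interval -0.37 to 1.22, adjusted p = 0.294), beside 0.56 for the 2790 genes whose DMSO mean was 4 to 5. A second feature of Slc7a11 read 4.38 and 5.68 in ATRA, against 4.38, 4.18 and 4.35 in DMSO, and did not pass in the fit over all features (0.73, adjusted p = 0.268). With the widths of these intervals, an absent change of Slc7a7 or Slc7a11 is not shown.

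Slc7a1 (CAT1), the main arginine and lysine carrier of many cells and a protein that works without CD98, had low ATRA values that disagreed with each other. Slc7a1 (chromosome 5, 148327410 to 148399904) stood at 8.12 and 6.09 in ATRA, against 9.62, 9.68 and 9.54 in DMSO. Both ATRA values were below the DMSO values, which lay close together, and ATRA replicate 2 minus replicate 1 was -2.03, the widest gap between the ATRA arrays among the 10 genes. The difference was -2.51 (SE 0.63, 95% interval -4.18 to -0.85) and missed the threshold (adjusted p = 0.0546). Genes of its level had a median of -1.94. Set against the median gene, Slc7a1 differed by -0.14 and -0.98 in ATRA replicates 1 and 2.

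Of the sodium-dependent neutral amino acid exchangers of the Slc1 family, Slc1a5 fell and Slc1a4 did not pass, and the difference between them was not tested. Slc1a5 (ASCT2, chromosome 7, 16781334 to 16798274), the exchanger best known for glutamine uptake, stood at 7.65 and 6.35 in ATRA, against 10.47, 10.53 and 10.39 in DMSO. Both ATRA arrays were far below the DMSO arrays, whose mean was 10.46 ± 0.07 (SD, n = 3). The difference was -3.46 (SE 0.41, adjusted p = 0.0120), and Slc1a5 differed from the median of the 466 genes of its level by -1.39 and -0.89 in ATRA replicates 1 and 2. A second feature that names Slc1a5 read 6.72 and 6.75 in ATRA, against 6.94, 6.94 and 6.97 in DMSO. That feature did not pass (-0.21, adjusted p = 0.276 over all features), so the 2 features of this gene disagree in size. With both features averaged the difference of Slc1a5 was -1.84 (adjusted p = 0.0123).

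Slc1a4 (ASCT1, chromosome 11, 20302180 to 20332713), which carries serine, alanine and cysteine, stood at 6.22 and 6.68 in ATRA, against 6.68, 6.86 and 6.68 in DMSO. ATRA replicate 2 equalled DMSO replicates 1 and 3 to the last deposited digit, so the groups met. The difference was -0.29 (95% interval -0.78 to 0.20, adjusted p = 0.266), while genes of its level had a median of 0.14.

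The Slc38 carriers, which accumulate glutamine and alanine with sodium, fell together. Slc38a1 (SNAT1) lies on chromosome 15 from 96571418 to 96643438, and Slc38a2 (SNAT2, induced by amino acid shortage) from 96687392 to 96699728. Slc38a1 stood at 8.35 and 6.97 in ATRA, against 10.49, 10.28 and 10.27 in DMSO. Slc38a2 stood at 7.85 and 7.16 in ATRA, against 9.20, 9.10 and 8.998 in DMSO. In both genes the ATRA values were below all DMSO values, with replicate 2 the lower. The difference of Slc38a1 was -2.69 (SE 0.44, adjusted p = 0.0224), 6.45-fold lower, beside -2.35 for genes of its level. The difference of Slc38a2 was -1.59 (SE 0.24, adjusted p = 0.0191), 3.02-fold lower, and was smaller than the -1.94 of genes of its level. Of the 10 members, 8 had a lower difference than the median gene of their level, and Slc38a2 and Slc7a7 a higher one. The median distance from that level was -0.34.

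**Figure D2:**
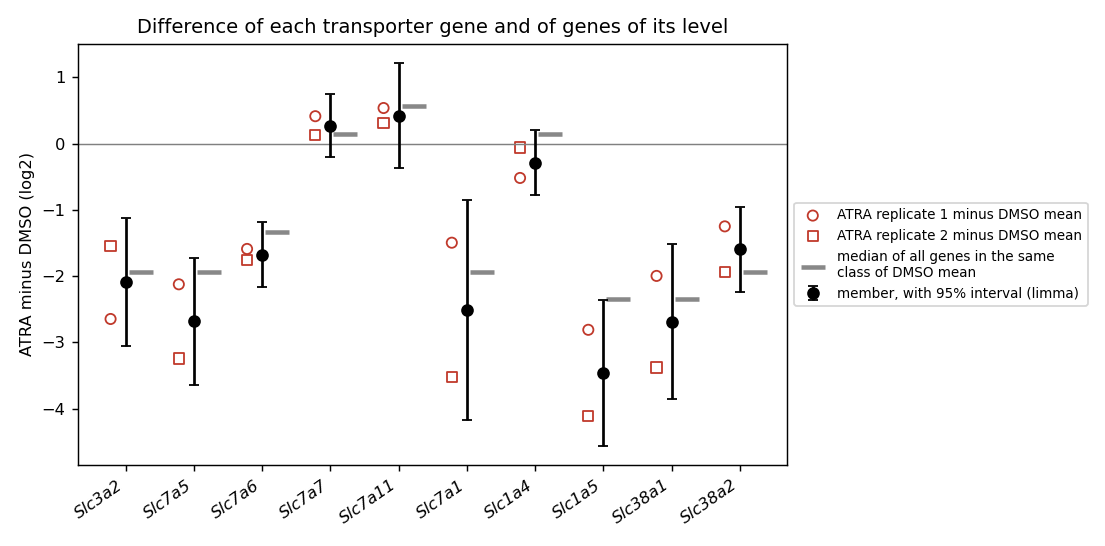
ATRA minus DMSO on the log2 scale (vertical axis) for each transporter gene: black points with 95% limma intervals, open red symbols for each ATRA array minus the DMSO mean, and grey bars for the median of all genes in the same class of DMSO mean. The points of 8 members lie below their grey bar, Slc1a5 lies furthest below its bar (-1.11), and the 2 ATRA arrays are furthest apart in Slc7a1.

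The calls of the transporters changed when any 1 array was left out, and with the treatment of the level trend. Without any 1 of the DMSO arrays 0 members passed, as 0 of all 22180 genes did. At an unadjusted p under 0.05 (limma) these fits held 7 or 8 members, against 5907 to 6065 genes. The median difference of the members moved little in them, from -1.98 to -1.79, beside -1.88 with all arrays. Without ATRA replicate 1, or without replicate 2, 7 members were lower, the 6 and Slc7a1, in fits that assume the lone ATRA array to vary like the DMSO arrays. Calls grew over all genes in these fits, to 30.6% lower without ATRA replicate 1 and 21.3% lower without replicate 2, against 15.5% with all arrays. After subtraction of each array's trend on DMSO level, 0 members passed, when 1.01% of all genes were lower. At an unadjusted p under 0.05 (limma) there were 2 members in that fit, against 5078 of the 22180 genes. In that fit Slc1a5 differed by -1.02 (adjusted p = 0.0596), Slc7a5 by -0.53 (adjusted p = 0.159) and Slc3a2 by -0.40 (adjusted p = 0.724), and Slc38a2 turned to 0.15. After cyclic loess normalization Slc7a5, Slc1a5 and Slc38a1 passed, by -1.19, -1.85 and -1.01, and Slc3a2, Slc7a6 and Slc38a2 did not, when 6.78% of all genes were lower.

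**Figure D3:**
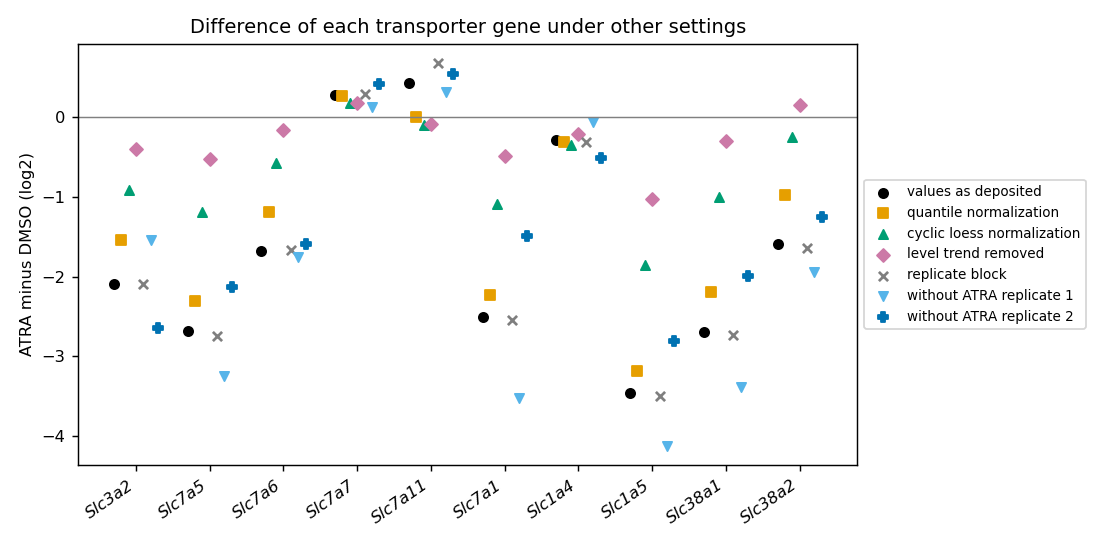
ATRA minus DMSO on the log2 scale (vertical axis) of each transporter gene for the values as deposited and under 6 other settings (symbols). The differences of the genes that fell are smaller after cyclic loess normalization, and smaller again without the level trend, where that of Slc1a5 (-1.02) is the largest.

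Of the other plasma membrane amino acid transporters on a list of 38 symbols, 37 were analysed, of which 0 rose, 5 fell and 32 did not pass. The lower share of 13.5% is near the 15.5% of all genes. Slc7a8 (LAT2), a further CD98 light chain, stood at 6.81 and 6.87 in ATRA, against 9.49, 9.52 and 9.85 in DMSO. It was 6.87-fold lower (-2.78, SE 0.16, adjusted p = 0.00627), with ATRA arrays that nearly met. Slc6a6, the taurine carrier, fell by 2.78 (adjusted p = 0.00665), Slc43a1, a leucine carrier (LAT3), by 1.28 (adjusted p = 0.0173) and Slc38a10 by 1.19 (adjusted p = 0.0208). The fifth, Slc7a4, was named after its values were seen and fell by 0.77. The median of this list was 0.32, beside 0.16 for all genes. Its 4 genes with a DMSO mean of at least 8 each fell, beside 52.8% of all genes at or above 8. With the level trend removed Slc7a8 differed by -0.75 (adjusted p = 0.351), Slc6a6 by -0.74 (adjusted p = 0.221) and Slc43a1 by 0.24, and 0 of the 37 passed. Slc43a2 (-0.93, adjusted p = 0.112) and the cationic carrier Slc7a2 (0.29, adjusted p = 0.159) did not pass in the values as deposited.

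Of 11 lysosomal transporters, 0 rose, 3 fell and 8 did not pass, with a median of -0.72. The lower share was 27.3%, beside 15.5% of all genes. Of the 4 with a DMSO mean of at least 8, 3 fell, beside 52.8% of all genes at or above 8. Those that fell carry different cargo. Slc29a3, a nucleoside carrier, fell by 1.91 (adjusted p = 0.00821), Mfsd12, which is needed for cysteine import into lysosomes, by 1.10 (adjusted p = 0.0177) and the histidine and peptide carrier Slc15a4 fell by 1.498 (adjusted p = 0.0425). Without the level trend Mfsd12 turned to 0.18. Slc38a9, the arginine sensor of the lysosome, differed by -0.79 (adjusted p = 0.0915) and Slc36a1 by -0.09 (adjusted p = 0.532).

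Of 22 genes of the amino acid response by the kinase GCN2 and ATF4, 1 rose, 4 fell and 17 did not pass, with a median of -0.28. The shares, 18.2% lower and 1 gene higher, lie near the 15.5% lower and 6.48% higher of all genes. Asns, asparagine synthetase, fell by 1.08 (adjusted p = 0.0152), but differed by 0.21 without the level trend, and Eif2ak4, which encodes GCN2, fell by 1.38 (adjusted p = 0.00936). Aldh18a1, of proline synthesis, fell by 1.83 (adjusted p = 0.00675), and Shmt2, the mitochondrial serine hydroxymethyltransferase, fell by 4.29 (adjusted p = 0.00627). Cebpb rose by 0.53 (adjusted p = 0.0468) and is named after its value was seen; it did not pass after quantile normalization (adjusted p = 0.0827) or without the level trend (adjusted p = 0.0772). Atf4 itself stood at 10.13 and 7.87 in ATRA, against 10.19, 10.19 and 10.13 in DMSO. ATRA replicate 1 of Atf4 was level with the DMSO arrays and replicate 2 far below them (-1.17, adjusted p = 0.246). Without the level trend Atf4 turned to 1.13 (adjusted p = 0.0607), and after cyclic loess normalization to 0.65 (adjusted p = 0.0557). Ddit3 (CHOP) was high in ATRA replicate 1 alone, at 8.79 and 7.30 in ATRA, against 7.59, 7.15 and 7.21 in DMSO (0.73, adjusted p = 0.279). Myc, a known activator of carrier genes, fell by 1.66 (adjusted p = 0.0372), but it differed by 0.80 without the level trend (adjusted p = 0.164) and by 0.20 after cyclic loess normalization.

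Of the genes that pass amino acid supply on to mTORC1, 28 were analysed, of which 0 rose, 11 fell and 17 did not pass. The list median was -0.82. The lower share of 39.3% stands beside 15.5% lower and 6.48% higher among all genes. Of the 10 with a DMSO mean of at least 8, 6 fell, beside 52.8% of all genes at or above 8. Mios and Seh1l, of the GATOR2 complex, changed by -2.36 (adjusted p = 0.00767) and -2.05 (adjusted p = 0.00776). Lamtor3, of the Ragulator scaffold, fell by 2.92 (adjusted p = 0.00876) and Kptn, of the KICSTOR complex, by 1.69 (adjusted p = 0.0107). With the level trend removed 1 gene of this list was higher, Lamtor5 (1.49, adjusted p = 0.0431), and 1 lower, Rragb (-1.65, adjusted p = 0.0491), both named after their values were seen.

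Of 14 glutathione and cystine genes, 1 rose and 3 fell. The lower share was 21.4%, beside 15.5% lower and 6.48% higher among all genes. Txnrd1, thioredoxin reductase, fell by 2.13 (adjusted p = 0.0130), Gclc, which makes the glutathione precursor from the cysteine that xCT supplies, by 1.05 (adjusted p = 0.0207) and the lipid peroxidase Gpx4 by 1.30 (adjusted p = 0.0269). Without the level trend Gclc turned to 0.067. Chac2, of glutathione breakdown, rose by 0.77 (adjusted p = 0.0212). Of 10 genes of glutamine and branched chain amino acid use, 0 rose, 4 fell and 6 did not pass. The lower share was 40%, and of the 6 with a DMSO mean of at least 8, 3 fell, beside 52.8% of all genes at or above 8. Bckdk, the kinase that restrains branched chain amino acid breakdown, fell by 2.86 (adjusted p = 0.0137) and by 1.17 with the level trend removed (adjusted p = 0.0385). Got2, an aspartate aminotransferase, fell by 2.54, the aminotransferase gene Bcat2 by 0.98 and Glud1, glutamate dehydrogenase, by 1.02. Without the level trend Got2 turned to 0.25 and Glud1 to 0.43, and Glud1 also turned to 0.18 after cyclic loess normalization. Glul, glutamine synthetase, did not pass (-1.08, adjusted p = 0.191) and turned to 0.85 without the level trend (adjusted p = 0.0789). After cyclic loess normalization Glul differed by 0.51 (adjusted p = 0.102). Bcat1 stood at 6.41 in both ATRA arrays and in DMSO replicates 1 and 3.

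**Figure D4:**
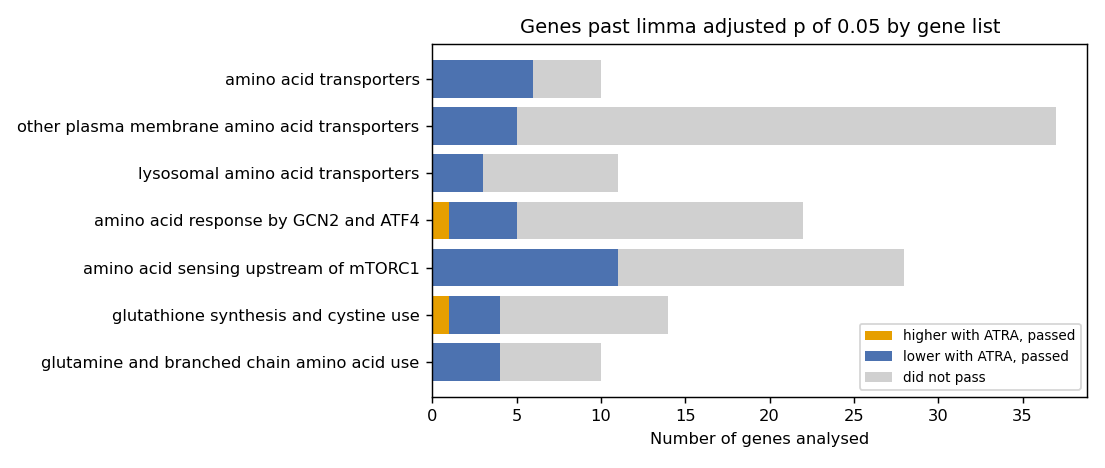
Number of genes analysed in each list (horizontal axis) that were higher (orange) or lower (blue) with ATRA past a limma adjusted p of 0.05, or did not pass (grey). The 10 transporters include 6 lower genes and the 37 other plasma membrane carriers include 5, beside 15.5% lower among all genes.

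With the level trend removed, 0 genes of the lysosomal, amino acid response and glutathione lists passed, and 1 of the glutamine and branched chain list, Bckdk.

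Markers of HSCs and of other marrow cells were read to check the label. Of 10 HSC markers 8 were analysed, and Hlf, Mecom and Kit fell. That is 37.5% lower, beside 15.5% lower and 6.48% higher among all genes. Of the 5 HSC markers with a DMSO mean of at least 8, 3 fell, beside 52.8% of all genes at or above 8. The difference was -3.25 in Kit, the stem cell factor receptor, -2.17 in Mecom and -1.33 in Hlf, at adjusted p values of 0.0125, 0.0270 and 0.0115. The mean over these markers was 8.11 and 6.93 in ATRA replicates 1 and 2, against 9.02 to 9.18 in DMSO. Of 12 neutrophil and monocyte markers 1 rose, S100a9 (0.81, adjusted p = 0.0259), with list means of 6.41 and 6.25 in ATRA, against 5.91 to 6.20 in DMSO. Of 7 lymphoid markers 1 rose, Cd3g, with means of 5.64 and 6.09 in ATRA, against 5.29 to 5.43 in DMSO. Of 5 megakaryocyte markers 1 fell, Itga2b (CD41), with means of 7.69 and 7.77 in ATRA, against 8.20 to 8.37 in DMSO. Of 4 erythroid markers 0 changed (limma, 1 at an unadjusted p under 0.05, Epor), with means of 6.00 and 6.44 in ATRA, against 6.29 to 6.64 in DMSO. Without the level trend each of these marker calls was lost, with Kit at -0.59 (adjusted p = 0.256), Mecom at -0.65 (adjusted p = 0.171) and Hlf at 0.28 (adjusted p = 0.504). S100a9, Cd3g and Itga2b had adjusted p values of 0.267, 0.854 and 0.751 in that fit. The megakaryocyte marker Pf4 (2.03, adjusted p = 0.0284) and the lymphoid marker Nkg7 (0.85, adjusted p = 0.0394), named after their values were seen, were higher there. The part of other cells in the transporter differences was not tested.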

How the data were processed

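The 5 samples were grouped by their titles, 2 as ATRA and 3 as DMSO. Per the labels' protocols, RNA came from a kit made for few cells, was freed of DNA with DNase, and was labelled with biotin by in vitro transcription. The authors deposited log2 expression values, 1 per feature and array, and the submitters' processing notes name limma 3.28.20, oligo 1.36.1 and RMA without saying what each did. Which genome build and array annotation served is not given in the sources used here. Values were used as deposited.

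The platform table named the features, and gene identifiers gave current symbols. Of 41345 features, 23521 named 1 gene, 1814 named several and 16010 were unnamed, and 23328 matched the GRCm38.p6 gene table. No feature names a member together with another gene. All 22180 genes were fitted with limma 3.58.1 in R 4.3.3 (lmFit and eBayes, ATRA minus DMSO, two-sided, residual and prior degrees of freedom 3 and 1.52). P-values were adjusted by Benjamini-Hochberg across the 22180 genes, and 0.05 was the threshold. Every adjusted p comes from this fit unless another is named. The code was tested on simulated arrays. The smallest p of an exact permutation test with 2 against 3 arrays is 0.1.

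Level classes are 1 unit of DMSO mean wide. The level trend was a lowess (span 0.3) of each array's difference from the DMSO mean. The members, textbook gene lists, tests and alternatives were chosen with earlier results of these data known. Named genes are the 10 members, up to 4 genes of each list with the smallest p, a fixed set (Slc7a8, Slc43a1, Slc43a2, Slc38a9, Slc36a1, Slc7a2, Atf4, Asns, Ddit3, Myc, Glul and Bcat1, beside a gene that is not reported here), the HSC markers, and the 3 genes closest in profile to Slc3a2 and to Slc7a5.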

Additional observations from a re-analysis of the deposited data

How the results depend on the processing

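The median difference of the 10 transporters was -1.88. It was -1.36 after quantile normalization, -0.26 with the level trend removed and -0.75 after cyclic loess normalization, and from -1.98 to -1.54 when each array was left out in turn. The 6 lower members became 4 after quantile normalization, 1 (Slc7a6) without the empirical Bayes prior, 0 with the level trend removed and 3 after cyclic loess normalization. The share of all genes lower, 15.5% in the values as deposited, was 7.86%, 5.61%, 1.01% and 6.78% in these settings, so fewer calls were made over all genes as well. With array weights 0 passed (7 members and 4377 genes at an unadjusted p under 0.05). Leaving out each array gave 0 to 7 lower members, 0 without any 1 of the DMSO arrays. With dim features left out, median centring or an adjusted p under 0.1, Slc7a1 passed as well, when 29%, 20.5% and 21.1% of all genes tested were lower. Slc7a11 was dropped with the dim features, so 9 members were tested in that setting. The direction turned for Slc7a11 after cyclic loess normalization (-0.10) and without the level trend (-0.091), and for Slc38a2 without that trend (0.15). The causes of these shifts were not tested. No setting gave a higher member past its threshold.

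The replicate numbers do not tie the samples by any label, and the deviations of same-numbered arrays correlated across genes at 0.13 and 0.10. With the replicate block 0 members and 0 genes passed (7 members and 5412 genes at an unadjusted p under 0.05), with a median of -1.88. Signal over background could not be judged, since no detection calls were used here.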

Other observations

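The profile of Slc3a2 over the 5 arrays, centred on its own mean, was closest to those of Mfn2, Arf3 and Wbp2, with root mean square differences of 0.059, 0.11 and 0.13 log2 units. The profile of Slc7a5 was closest to those of Septin2, Puf60 and Pds5b (0.038, 0.061 and 0.070). Among the members, Slc7a5 and Slc38a1 were the closest pair (0.12), followed by Slc7a6 and Slc38a2 (0.21). With 5 arrays such distances describe these values and no more.

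A value shared to the last deposited digit by at least a pair of arrays was found in 47.8% of genes and in 1 of the 10 transporters, Slc1a4. Both second features, of Slc7a11 and Slc1a5, held such a value too. The Slc7a11 second feature read 4.38 in ATRA replicate 1 and in DMSO replicate 1, and the Slc1a5 second feature 6.94 in DMSO replicates 1 and 2.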
